A study of Mus musculus with 37 samples.

Results

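2610528A11Rik and Klhl6 are 2 genes of the 35542 counted in tailbuds of mouse embryos between 6 and 11 somites. They were chosen by their rise with somite number in control embryos, where they ranked 1 and 3 by p among 474 rising genes, so that rise is described here and not tested. The label of fastest rising holds for p and not for size, since the same genes ranked 20 and 90 of 474 by slope. The tailbud is the growing end of the embryo, cut in this study just below the most recently formed somite. RNA was sequenced from 37 single tailbuds of C57BL/6/Cast F1 embryos at E8-8.5. Control embryos (wt, Smchd1[fl/+], n = 21) numbered 4, 4, 3, 3, 4 and 3 at 6, 7, 8, 9, 10 and 11 somites. Maternally deleted embryos (matdel, Smchd1[del/+], n = 16) numbered 4, 3, 2, 2, 3 and 2 at the same stages. In the matdel embryos the chromatin repressor gene Smchd1 had been removed in the mother's oocyte with MMTV-Cre, so they lacked the egg's supply and kept a working paternal allele. They therefore differ from wt both in maternal SMCHD1 and in carrying 1 working allele, which cannot be told apart here. All 6-somite embryos, and the matdel embryos at 8 and 9 somites, were female.

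2610528A11Rik, also listed as Gpr15l, encodes a small secreted peptide that acts as a ligand of the receptor GPR15 and is known from epithelia of the gut and skin, where it draws in lymphocytes. Klhl6 encodes a Kelch-like protein, a BTB-domain adaptor that presents substrates to the CUL3 ubiquitin ligase, and is known best for its role in germinal centre B cells. The embryo at these stages has no lymphocytes, while vessels, primitive blood and the hindgut are forming next to the tailbud mesoderm. Hox genes of higher group number are switched on in sequence in the tailbud as the trunk is laid down, which makes them a molecular record of axial progress.

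The files give 2610528A11Rik (ENSMUSG00000096001) at chr14:37102140-37114022 and Klhl6 (ENSMUSG00000043008) at chr16:19946496-19983037 in GRCm38, both on the minus strand. GENCODE places 2 transcripts at 2610528A11Rik. The coding one has 3 exons over chr14:37102142-37110101, and a non-coding one starts further upstream at position 37114022. The coding transcript of Klhl6 has 7 exons. No other gene in the table overlapped either of them. The 250 bases before the RefSeq start (GRCm38.p6, minus strand, 5′ to 3′) are shown because any shared motif of a stage-related factor would be looked for there. They cover chr14:37110102-37110351 for 2610528A11Rik and chr16:19983050-19983299 for Klhl6. Capitals mark matches, on either strand, to the motifs searched.
2610528A11Rik: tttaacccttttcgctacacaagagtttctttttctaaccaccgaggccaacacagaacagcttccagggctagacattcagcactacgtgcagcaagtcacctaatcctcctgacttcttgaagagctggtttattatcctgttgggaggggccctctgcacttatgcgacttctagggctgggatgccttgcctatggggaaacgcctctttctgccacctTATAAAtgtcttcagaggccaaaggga
Klhl6: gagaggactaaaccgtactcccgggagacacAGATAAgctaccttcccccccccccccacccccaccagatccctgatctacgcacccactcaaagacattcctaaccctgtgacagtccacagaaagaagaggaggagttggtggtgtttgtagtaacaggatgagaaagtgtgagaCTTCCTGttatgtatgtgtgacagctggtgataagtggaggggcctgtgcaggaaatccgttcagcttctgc

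The upstream regions shared none of the motifs searched. 2610528A11Rik held a TATA box (TATAAA) 27 to 22 bases before its start, a match that 12.4% of 32851 RefSeq promoters of that length also held. Klhl6 held a GATA match (AGATAA, in 9.99% of promoters) at 219 to 214 bases before its start. It also held an ETS match (CAGGAAG, read on the opposite strand, in 10.8%) at 72 to 66 bases. Neither region matched the CDX (TTTATNG), T-box (GGTGTGA), TCF/LEF (CTTTGAT), FOX (TGTTTAC), SOX (AACAATG) or second ETS (CCGGAAG) letters, nor did the 50 bases after the start. GC content was 49.2% for 2610528A11Rik and 52.8% for Klhl6, against a median of 52.4%. CpG dinucleotides numbered 5 and 4, against a median of 6. A match is a description of letters and not of a bound site.

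Libraries held 916444 to 80579115 counts (median 12845991). The tailbud markers T (101 to 365 CPM, read counts scaled to a common library size with TMM factors), Tbx6 (12.3 to 59.6 CPM) and Msgn1 (14.5 to 75.8 CPM) were present in all 37. Smchd1 was at 64.1 to 113 CPM in matdel and 104 to 204 CPM in wt embryos, lower in matdel embryos by median (90.3 against 149 CPM) with ranges that overlapped. A group of 4 libraries stood apart. The matdel 6-somite replicate 3 held 916444 counts and the wt 7-somite replicate 2 held 3061180. The matdel 6-somite replicates 1 and 2 had the largest shares of counts at the ribosomal RNA locus, 2.77% and 1.82%, against 0.176% to 1.28% elsewhere. So 3 of the 4 matdel embryos at 6 somites are concerned. Matdel slopes of the members and within-group results are given with all libraries and without those 4, which leaves 33 of 37 embryos. Slopes and levels of neighbouring genes and of gene lists are given with all libraries only.

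2610528A11Rik rose with somite number in wt embryos, the contrast that chose it. At 6 somites the wt embryos held 4.29, 3.78, 6.47 and 7.16 CPM, and at 7 somites 5.20, 9.20, 7.02 and 6.44 CPM. The 8-somite embryos were at 5.68, 14.8 and 11.0 CPM, the widest spread of any wt stage. Values then moved to 15.3, 17.2 and 19.4 CPM at 9 somites. They were 17.2, 20.7, 15.4 and 24.01 CPM at 10 somites and 23.4, 27.0 and 23.7 CPM at 11 somites. Every wt embryo with 9 or more somites thus stood above every one with 8 or fewer, as 0.158% of genes did. The order of the wt means followed somite number. Stages 6 and 7, and stages 9 and 10, differed by less than their pooled SD, and the largest step was the 6.78 CPM between 8 and 9 somites (pooled SD 3.56). The mean went from 5.43 ± 1.64 CPM (SD, n = 4) at 6 somites to 24.7 ± 1.99 CPM (SD, n = 3) at 11 somites, a ratio of 4.55. The fitted slope was 0.46 log2 units per somite (SE 0.04).

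The matdel embryos, which the choice did not use, gave 2610528A11Rik values of 0.461, 5.39, 24.03 and 6.48 CPM at 6 somites. Replicates 1 and 3 among them are the library richest in ribosomal RNA counts and the shallowest library. Their values rest on 3 counts (95% Poisson interval 0.0950 to 1.35 CPM) and on 22 counts (15.1 to 36.4 CPM), so each lay outside the wt range of its stage by more than counting error. The other stages ran at 9.41, 7.78 and 5.19 CPM for 7 somites and at 12.3 and 6.79 CPM for 8 somites. At 9 somites the pair of embryos held 11.4 and 21.8 CPM. Later values were 21.7, 21.7 and 17.0 CPM at 10 somites and 17.8 and 26.8 CPM at 11 somites. Early and late matdel embryos overlapped, both with all libraries and without those that stood apart (5.19 to 12.3 CPM against 11.4 to 26.8 CPM). In the order of the matdel means only the step from 8 to 9 somites exceeded its pooled SD.

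Klhl6 was flatter at first. The wt embryos were at 4.99, 4.43, 4.51 and 4.42 CPM with 6 somites, and at 4.68, 4.27, 6.52 and 5.68 CPM with 7. At 8 somites they held 7.19, 5.03 and 5.35 CPM. The level then stepped up to 8.35, 8.87 and 8.04 CPM at 9 somites, and reached 10.9, 8.17, 8.27 and 11.1 CPM at 10 somites and 11.99, 9.24 and 10.3 CPM at 11. The step of 2.56 CPM between 8 and 9 somites was the only one between wt neighbours beyond the pooled SD (0.877). The wt mean went from 4.59 ± 0.274 CPM (SD, n = 4) to 10.5 ± 1.39 CPM (SD, n = 3), a ratio of 2.29, with a fitted slope of 0.25 log2 units per somite (SE 0.03).

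In matdel embryos Klhl6 was at 4.46, 6.48, 0 and 4.51 CPM at 6 somites. The value of 0 belonged to the shallowest library, where 0 of 916444 counts allows up to 3.28 CPM. That limit lies below the other 6-somite embryos (4.42 to 6.48 CPM), and the 95% Poisson interval of the value reaches 4.03 CPM. The 7-somite embryos held 4.03, 5.51 and 2.80 CPM, and the 8-somite embryos 6.53 and 4.77 CPM. From there the values were 8.88 and 13.02 CPM at 9 somites, 8.50, 8.65 and 10.8 CPM at 10 somites, and 9.06 and 10.7 CPM at 11 somites. All 7 matdel embryos with 9 or more somites (8.50 to 13.02 CPM) stood above all 9 with fewer (0 to 6.53 CPM), as 0.485% of 15477 genes did in those embryos. Ordered by mean the matdel stages ran 6, 7, 8, 10, 11 and 9 somites, with 11.0 CPM at 9 somites. The steps from 7 to 8 and from 8 to 10 somites exceeded their pooled SD, and the other neighbours did not differ beyond their spread.

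**Figure D1:**
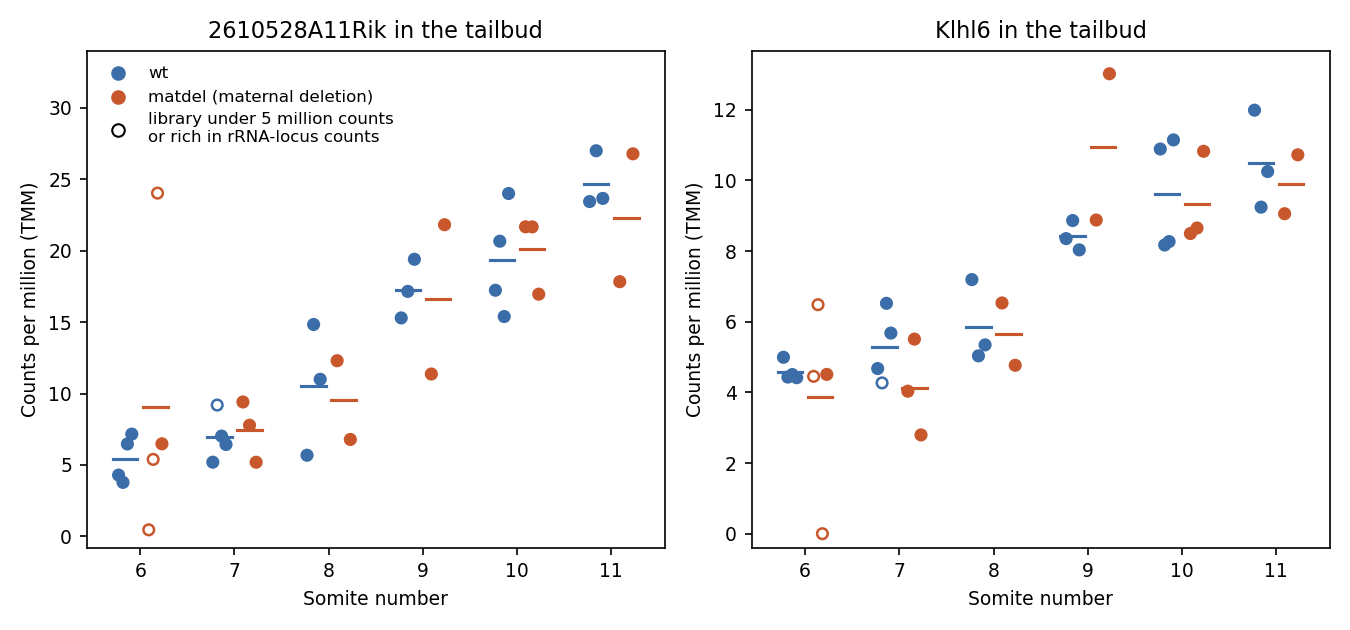
CPM (linear axis) of 2610528A11Rik (left) and Klhl6 (right) against somite number, 1 point for each of 37 embryos, with horizontal bars at the group means. Open points are the 4 libraries that stood apart; both genes step up between 8 and 9 somites, and the open matdel points at 6 somites range from 0.461 to 24.03 CPM for 2610528A11Rik and from 0 to 6.48 CPM for Klhl6.

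Per kilobase of annotated exon (828 bases for 2610528A11Rik, 2609 for Klhl6), the wt mean level of 2610528A11Rik was 6.55 CPM per kb at 6 somites and 29.8 at 11 somites. That of Klhl6 was 1.76 and 4.02 CPM per kb. 2610528A11Rik was thus the more abundant transcript per length at both ends of the series. Counts per library ranged from 3 to 1256 (median 144) for 2610528A11Rik and from 0 to 686 (median 91) for Klhl6, with 4 embryos under 30 counts for each gene.

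Whether the genes also rose in embryos without maternal SMCHD1 could be tested, since the choice did not use those embryos. Both did. By edgeR's quasi-likelihood test with Benjamini-Hochberg adjustment over 15477 genes, the slope of 2610528A11Rik in the 16 matdel embryos was 0.41 log2 units per somite (SE 0.10, adjusted p = 0.0306). That of Klhl6 was 0.30 (SE 0.07, adjusted p = 0.0234). These p-values measure the spread between the embryos sampled. Rising calls made up 1.93% of the genes tested in matdel and 3.13% in wt embryos. Without the 3 matdel libraries that stood apart the slopes were 0.41 (SE 0.06, adjusted p = 0.00422) and 0.32 (SE 0.07, adjusted p = 0.0196), where 1.21% of genes were called rising. The call for 2610528A11Rik was lost in DESeq2's Wald test (slope 0.34, adjusted p = 0.0932) and in edgeR with replicate number as a block.

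Leaving out single embryos kept both slopes positive and moved some calls past the threshold. For 2610528A11Rik the slope stayed within 0.36 to 0.48 log2 units per somite. Its adjusted p in edgeR's quasi-likelihood test became 0.136 without the matdel 11-somite replicate 2 and 0.0675 without the 6-somite replicate 2. It was 0.0613, 0.0561 and 0.0533 without the 7-somite replicates 1, 2 and 3, and 0.0592 without the 10-somite replicate 3. For Klhl6 the slope stayed within 0.28 to 0.34. Its adjusted p by the same test was 0.0634 without the 11-somite replicate 2, 0.0615 without the 10-somite replicate 3 and 0.0606 without the 7-somite replicate 1.

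The rise did not differ detectably between genotypes. The matdel slope minus the wt slope was -0.03 log2 units per somite for 2610528A11Rik (95% interval -0.24 to 0.17) and 0.03 for Klhl6 (-0.10 to 0.17). Among 15978 genes edgeR's quasi-likelihood test called 0% for this difference, as did DESeq2, and 626 genes had an unadjusted p under 0.05. The adjusted p of both members was 0.9998 in edgeR. Averaged over stages, matdel minus wt was 0.01 log2 units for 2610528A11Rik (SE 0.18, 95% interval -0.34 to 0.36) and -0.04 for Klhl6 (SE 0.12, -0.26 to 0.19), with adjusted p of 0.999 for both in edgeR's quasi-likelihood test, which called 0.0125% of genes. Over the 33 embryos these differences were 0.02 (SE 0.13) and -0.05 (SE 0.10). Taken stage by stage, none of the 12 comparisons of mean log2 CPM passed an exact permutation test (two-sided, p between 0.1 and 0.914, adjusted p = 0.914 for all). The smallest p possible is 0.0286 at 6, 7 and 10 somites and 0.1 at the others. The largest stage difference with all libraries was in Klhl6 at 6 somites, -1.17 log2 units, which includes the library with 0 counts and became -0.03 without the libraries that stood apart (n = 1 matdel embryo). Without them the largest was -0.48, in Klhl6 at 7 somites (exact permutation p = 0.2). Male minus female differences were 0.01 (SE 0.21) and 0.05 (SE 0.14), with adjusted p of 1 for both in the same edgeR fit, where 0.219% of genes were called.

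**Figure D2:**
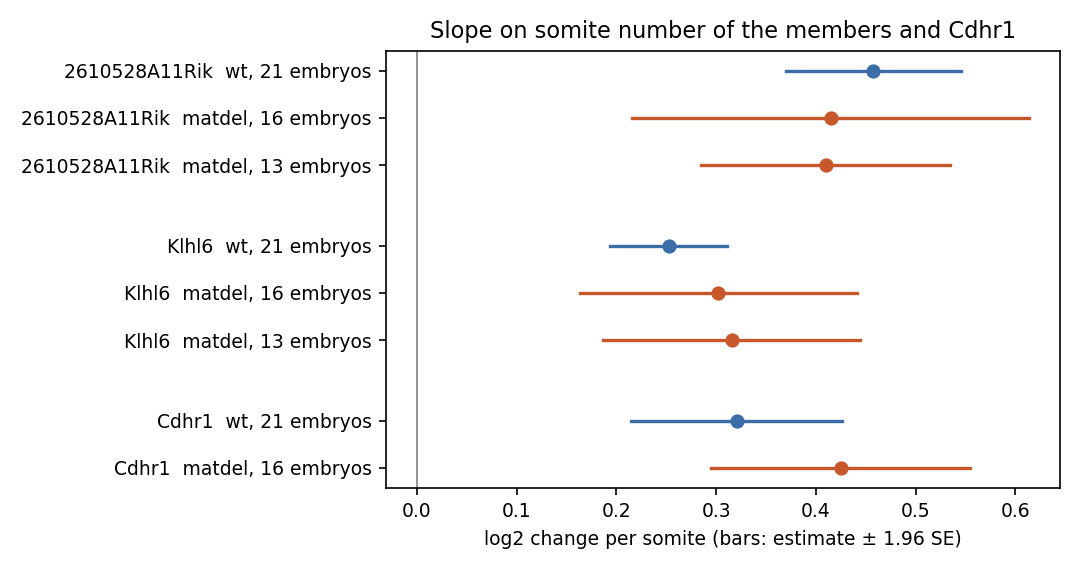
Fitted log2 change per somite (x axis) for 2610528A11Rik, Klhl6 and the neighbouring gene Cdhr1 (rows) in wt and matdel embryos, with bars of the approximate 95% interval; 13 embryos marks matdel without the libraries that stood apart. The wt and matdel bars overlap for each gene. Cdhr1 is shown with all libraries only. The wt slopes of the members are the values they were chosen by, while their matdel bars, from 0.22 to 0.61 and from 0.16 to 0.44 with 16 embryos, were not used in the choice.

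Among genes near the members, 1 rose with 2610528A11Rik. Cdhr1, which encodes a photoreceptor cadherin, lies 3.79 kb downstream on the same strand. In wt embryos it was at 3.16 to 9.00 CPM (median 6.37, n = 11) up to 8 somites and at 7.30 to 20.4 CPM (median 15.1, n = 10) from 9 somites. In matdel embryos the ranges were 0 to 9.72 CPM (median 5.59, n = 9) and 8.27 to 17.5 CPM (median 16.5, n = 7). The groups overlapped slightly in both genotypes, and the medians more than doubled. Its slopes were 0.32 log2 units per somite (SE 0.05, adjusted p = 0.000616) in wt and 0.42 (SE 0.07, adjusted p = 0.00106) in matdel embryos by edgeR's quasi-likelihood test. Both include the libraries that stood apart.

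The other genes within 250 kb did not pass that test in either genotype. On the 2610528A11Rik side, Ghitm, a mitochondrial membrane protein gene 6.07 kb upstream, had slopes of 0.03 in both genotypes (SE 0.01 and 0.02). Ccser2, 133 kb away, was at 0.05 (SE 0.02) and 0.09 (SE 0.03). The retinal genes Rgr, Lrit1 and Lrit2 had 0 counts in all libraries. Around Klhl6, the lysosomal gene Lamp3, the glycosyltransferase gene B3gnt5, the Kelch-like gene Klhl24 and Yeats2 had slopes between -0.01 and 0.05 in the 2 genotypes. A930003A15Rik and Gm49598 had 0 counts.

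Some genes followed the members closely from group to group. The measure was Pearson's r over the 12 means of log2 CPM, 1 for each genotype and stage, among 11208 genes with at least 5 CPM on average. It is a description, since all such genes share the same embryos and much of the likeness is the rise itself. For 2610528A11Rik the closest were Gja5, which encodes the connexin of arterial endothelium (r = 0.989), Hoxa9 (0.983), Igfbp5, an IGF binding protein gene (0.981), Hoxc8 (0.981) and Lrrn3 (0.980). These r were 0.970 to 0.985 without the libraries that stood apart. For Klhl6 they were Plagl1, an imprinted zinc-finger gene (0.973), the mitophagy receptor gene Bnip3l (0.968), Mmd (0.965), Rab32 (0.965) and the organic anion transporter gene Slco2b1 (0.964), and 0.905 to 0.940 without those libraries. The members followed each other with r = 0.918, rank 124 and 105 in the other's list.

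Among the lists of related genes, those for the proteins the members work with had no called slope. Gpr15, the receptor of the 2610528A11Rik peptide, had 16 counts in all 37 libraries together and did not pass the filter on low counts. Of 9 genes for the CUL3 ligase machinery and Klhl6 substrates, 0 passed edgeR's quasi-likelihood test for a slope in wt (median 0.01 log2 units per somite) or in matdel embryos (median 0.01). Dcun1d1, for a factor that helps to attach NEDD8 to cullins, was the 1 gene with an unadjusted p under 0.05 in each genotype (slopes of 0.07 and 0.05). Cul3 itself was at 246 CPM on average with slopes of 0.01 in both genotypes (SE 0.02), and Rc3h2, whose product roquin-2 is a KLHL6 substrate, was at 47.2 CPM with slopes of 0.03 and 0.06 (SE 0.04). Of 39 other Kelch-family genes 30 were tested. Klhl4 rose in wt (0.24, SE 0.07, adjusted p = 0.0415) and Klhl9 in matdel embryos (0.08, SE 0.02, adjusted p = 0.0403), both by edgeR's quasi-likelihood test. That is 1 of 30 genes in each genotype, where 3.13% of all genes rose in wt and 1.93% in matdel embryos. The family's median slope was 0.01 in each, against medians of 0.00 over all genes.

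Lymphoid markers were near the floor, although both members are known from lymphocyte biology. Over the 37 embryos the mean level was 0.0443 CPM for the B cell receptor gene Cd79a, 0.301 CPM for its partner Cd79b, 0.109 CPM for the pan-leukocyte gene Ptprc and 0.339 CPM for the B cell factor gene Pax5. Cd3e, of the T cell receptor complex, had 0 counts. None of these 5 genes passed the filter for the slope fits. Among 16 endothelial markers 7 rose in wt and 6 in matdel embryos by edgeR's quasi-likelihood test and 0 fell, where 3.13% and 1.93% of all genes rose. The other 9 and 10 did not pass, with Kdr, a VEGF receptor gene, at -0.02 in wt (adjusted p = 0.872). The median slope of the list was 0.15 in wt and 0.20 in matdel embryos, against 0.00 over all genes. Cdh5 (0.16 and 0.19), Tie1 (0.18 and 0.27), Emcn (0.71 and 0.74), Cldn5 (0.31 and 0.32) and Plvap (0.28 and 0.36) rose in both. The summed endothelial level was 254 to 469 CPM (median 379) up to 8 somites and 284 to 545 CPM (median 467) from 9 somites in wt embryos. In matdel embryos it was 247 to 448 CPM (median 293) and 354 to 575 CPM (median 451). In whole tailbuds more cells of a type and more RNA per cell cannot be told apart. Other cell types moved with stage as well. Of 10 primitive erythroid genes Hbb-y, an embryonic globin gene, and Slc4a1, the red cell anion exchanger gene, rose in both genotypes (list medians 0.52 in wt and 0.43 in matdel embryos). Of 11 visceral endoderm genes Ttr, Apob and Apom fell in wt embryos by the same test. In matdel embryos 0 were called, with 0 at an unadjusted p under 0.05. The list medians were -0.65 and -0.26, against 0.00 over all genes. The share of all genes that fell is not given here. The part of these cell types in the rise of the members was not tested.

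Of the 7 genes of Hox groups 8 and 9, 5 rose in each genotype by the same test (Hoxc8, Hoxd8, Hoxa9, Hoxc9 and Hoxd9), with median slopes of 0.17 in wt and 0.23 in matdel embryos, where 3.13% and 1.93% of all genes rose and their median slope was 0.00. Hoxb8 (slopes of -0.07 in wt and -0.06 in matdel embryos) and Hoxb9 (-0.02 and -0.03) did not pass. Hoxc9, the steepest of the list in wt embryos, had slopes of 0.39 (SE 0.05) and 0.41 (SE 0.04), close to those of 2610528A11Rik. Of 12 genes of Hox groups 10 to 13, 8 were tested and 1 rose in each genotype by the same test. These were Hoxc10 in wt and Hoxd13 in matdel embryos. The median slopes of that list were 0.16 and 0.35. Among the other rising genes that ranked with the members by p in wt, Btg2 had a slope of 0.29, Hoxd8 of 0.30 and Sqle, a cholesterol synthesis gene at rank 5, of 0.19. The next gene, Cyp51 of the same pathway, had 0.24.

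The second question was which genes moved with the members among embryos of 1 genotype and stage. For this, log2 CPM was corrected for the 12 groups and for sex, and the residuals were compared. The answer depended on the libraries that stood apart. The residual of 2610528A11Rik was -3.00 in the matdel 6-somite replicate 1 and 2.33 in replicate 3, and within ±0.77 log2 units in the other 35 embryos. The residual of Klhl6 was -3.94 in replicate 3. There the 0 counts were placed at -2.87 on the log2 scale by the prior count, while the limit of 3 counts would be 1.71. Because residuals of a group sum to 0, the other 3 embryos of that group had Klhl6 residuals above 1. For the same reason the residuals of a group of 2 embryos mirror each other. An r within 1 genotype thus rests on fewer independent values than its n.

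With all 37 embryos edgeR's quasi-likelihood test called 1137 genes as co-varying with 2610528A11Rik (6.80% of 16728, 619 with a positive sign) and 235 with Klhl6 (1.40%, 93 with a positive sign). In the 33 embryos, a set chosen after seeing the data, the same test called 1 gene with 2610528A11Rik (0.00573% of 17441) and 0% with Klhl6. At an unadjusted p under 0.05 the 33 embryos gave 1457 genes (8.35%) and 356 genes (2.04%). None of the calls was shared between the sets of embryos, while 275 of the 1137 genes and 9 of the 235 kept their sign with an unadjusted p under 0.05 in the 33. Leaving out the matdel 6-somite replicate 1 alone took the count for 2610528A11Rik to 3, and leaving out replicate 3 took it to 312. For Klhl6, leaving out replicate 3 alone took the count to 0, and leaving out the matdel 7-somite replicate 2 or 9-somite replicate 1 raised it to 359 and 378. With all embryos, DESeq2 called 1484 and 229 genes.

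**Figure D3:**
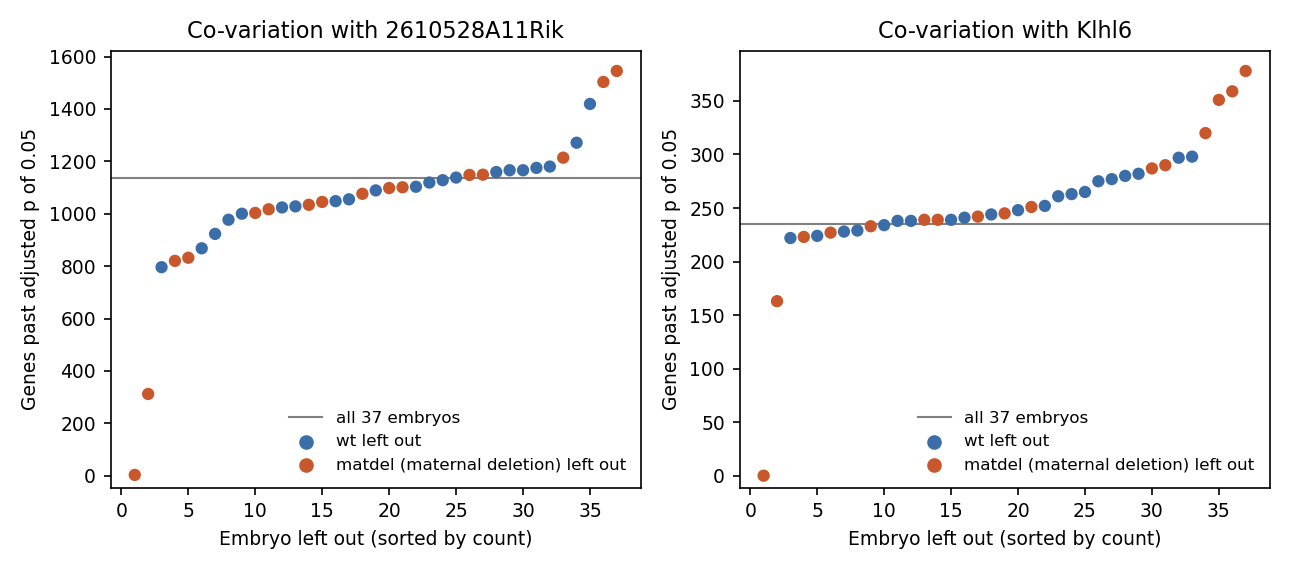
Number of genes past an adjusted p of 0.05 for co-variation with each member (y axis) when 1 embryo is left out, with embryos sorted by that number (x axis) and the line at the count with all 37. For 2610528A11Rik the lowest points are 3 and 312 and for Klhl6 the lowest is 0, all from matdel 6-somite embryos.

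Ranked by r over the 37 embryos, the leading genes with 2610528A11Rik were the zinc-finger genes Zfp971 (r = 0.89) and Zfp764 (0.86), Agpat5 (0.88), Nrep (0.86), Rnf34 (0.85), Prr11 (0.85), Adam17, Xpnpep3, Pcmtd1 and Erap1. The lowest were E4f1 (r = -0.86), Sin3b (-0.85), Tpra1 (-0.84), Urgcp (-0.84) and Star (-0.84). Over the 33 embryos the r of the 10 highest were between 0.33 and 0.65. With Klhl6 the leaders were Gm20422, Rcsd1, Xrcc4, Cnrip1, Efcab11, Slc26a11, Fancc, Cyb5r1, Ankrd44 and March2 (r = 0.95 to 0.97), which had r of 0.00 to 0.44 in the 33 embryos. All but Slc26a11 (adjusted p = 0.186) were called by edgeR's quasi-likelihood test. The lowest were Mindy3, Gm35315, Abraxas1, Zfp960 and Gm16740 (-0.87 to -0.85, and -0.26 to -0.05 in the 33). The matdel 6-somite replicate 1 differed in other genes too, with Hmox1 at 127 CPM against 10.9 to 25.8 CPM in the other embryos and Krt7 at 83.6 against 6.09 to 21.4 CPM; both were picked after their values were seen.

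The gene called with 2610528A11Rik in the 33 embryos was Sparcl1, which encodes a matricellular glycoprotein (r = 0.81 over all, 0.82 in 20 wt and 0.80 in 13 matdel embryos, adjusted p = 0.0401 by edgeR's quasi-likelihood test). It was not called with all 37 (r = 0.32). The genes next to it did not pass the test. They included Crebrf (r = 0.80), Pdk1, a kinase gene of glucose metabolism (0.79), Hoxc6 (0.74), Adam12 (0.72), Hoxa9 (0.71) and the Notch target Hey1 (0.71). Over the 37 embryos their r were 0.70, 0.19, 0.59, -0.17, 0.51 and 0.46 in that order. The lowest were Apbb3 (-0.81), Fut4 (-0.73), Lsp1 (-0.72), Pcyox1l (-0.69) and Sharpin (-0.69). Over the 37 these r were -0.07, -0.33, -0.65, -0.80 and 0.11. In the 33 embryos the adjusted p of these highest and lowest genes in edgeR's quasi-likelihood test were between 0.0815 and 0.552. With Klhl6 the highest r in the 33 embryos were those of the Kelch-like gene Klhl3 (0.70), Pecam1 (0.69), Ndrg1 (0.68), Ccnb1 (0.67) and Zfp395 (0.63), with Cdh5 at 0.58; Pecam1 and Cdh5 encode junction proteins of endothelial cells. All had an adjusted p of 1 in the same test. Over the 37 embryos r with Klhl6 was -0.06 for Klhl3 and -0.19 for Ccnb1. It was 0.82 for Pecam1, 0.64 for Ndrg1, 0.64 for Zfp395 and 0.30 for Cdh5. Cdhr1, which rose with 2610528A11Rik over stages, had an r with 2610528A11Rik of -0.38 within groups over 37 embryos and 0.45 over 33. The adjusted p were 0.227 and 0.593 in edgeR's quasi-likelihood test.

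The members were not detectably correlated within groups. Over 37 embryos Pearson's r of their residuals was -0.57 (permutation p = 0.447) and Spearman's rho 0.05 (permutation p = 0.819). The negative r rested on the shallowest library, since r was 0.21 without it and 0.25 without the 2 embryos farthest from the median of 2610528A11Rik. Over the 33 embryos r was 0.22 (permutation p = 0.389) and rho 0.24 (permutation p = 0.346). In the genotypes alone r was -0.34 in wt (permutation p = 0.264) and -0.59 in matdel embryos (permutation p = 0.484), and -0.21 and 0.62 without the libraries that stood apart (permutation p = 0.585 and 0.136).

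Scores of 16 marker and Hox lists, the mean residual of a list's genes, were correlated with each member, as were total counts and the share at the ribosomal RNA locus. Of these 36 correlations 1 passed adjustment by Pearson's r with all 37 embryos. It was that of 2610528A11Rik with Hox groups 8 and 9 (r = 0.48, permutation p = 0.000920, adjusted p = 0.0331, and rho = 0.65, permutation p = 0.000620, adjusted p = 0.0223). It was 0.63 in wt and 0.63 in matdel embryos, and 0.62 without the 2 embryos farthest from the median. Without the libraries that stood apart r was 0.62, and its adjusted p was 0.275 (permutation p = 0.00763). The adjusted permutation p was 0.158 without the matdel 6-somite replicate 3 and 0.0546 without the wt 7-somite replicate 2. The correlation also missed the threshold with replicate number as a block. All 7 listed genes had a positive r in the 33 embryos, where the score did not pass adjustment. The highest were Hoxa9 (0.71), Hoxc9 (0.59), Hoxc8 (0.52) and Hoxd8 (0.51), while Hoxb8 (0.03) and Hoxb9 (0.13) were near 0. The median r of the 7 in the 33 embryos was 0.51, against -0.01 over all genes. Over the 37 embryos, where the score passed, Hoxd9 went the other way (r = -0.33). The score of Hox groups 10 to 13 had an r with 2610528A11Rik of -0.07 over 37 embryos and 0.17 over 33. It passed adjustment in neither set.

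For Klhl6 the highest rank correlation was with endothelium. Over 37 embryos r was 0.76 (permutation p = 0.00281, adjusted p = 0.0506) and rho 0.62 (permutation p = 0.00154, adjusted p = 0.0277), so that the result passed by rank and missed by Pearson's r. It was 0.41 in wt and 0.92 in matdel embryos, and 0.54 without the 2 embryos farthest from the median. Over the 33 embryos r was 0.42 (permutation p = 0.0178, adjusted p = 0.321). Leaving out the shallowest library alone gave 0.40 (adjusted permutation p = 0.223), while the other single embryos left it between 0.73 and 0.80, with an adjusted permutation p under 0.05 in 14 of 37 cases. Of the 16 endothelial genes, 15 had a positive r in the 33 embryos, with a median of 0.30 against 0.00 over all genes. Pecam1 (0.69), Cdh5 (0.58), Tie1 (0.51) and Erg (0.50) were the highest. 2610528A11Rik had an r with the endothelium score of -0.31 over 37 embryos and 0.34 over 33, neither past adjustment. In the 33, 14 of the 16 genes had a positive r with it, with a median of 0.14. The likeness in the 33 embryos was thus not particular to Klhl6. The score of the somite list, with r = 0.81 in all embryos (adjusted permutation p = 0.289), fell to 0.01 in the 33.

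**Figure D4:**
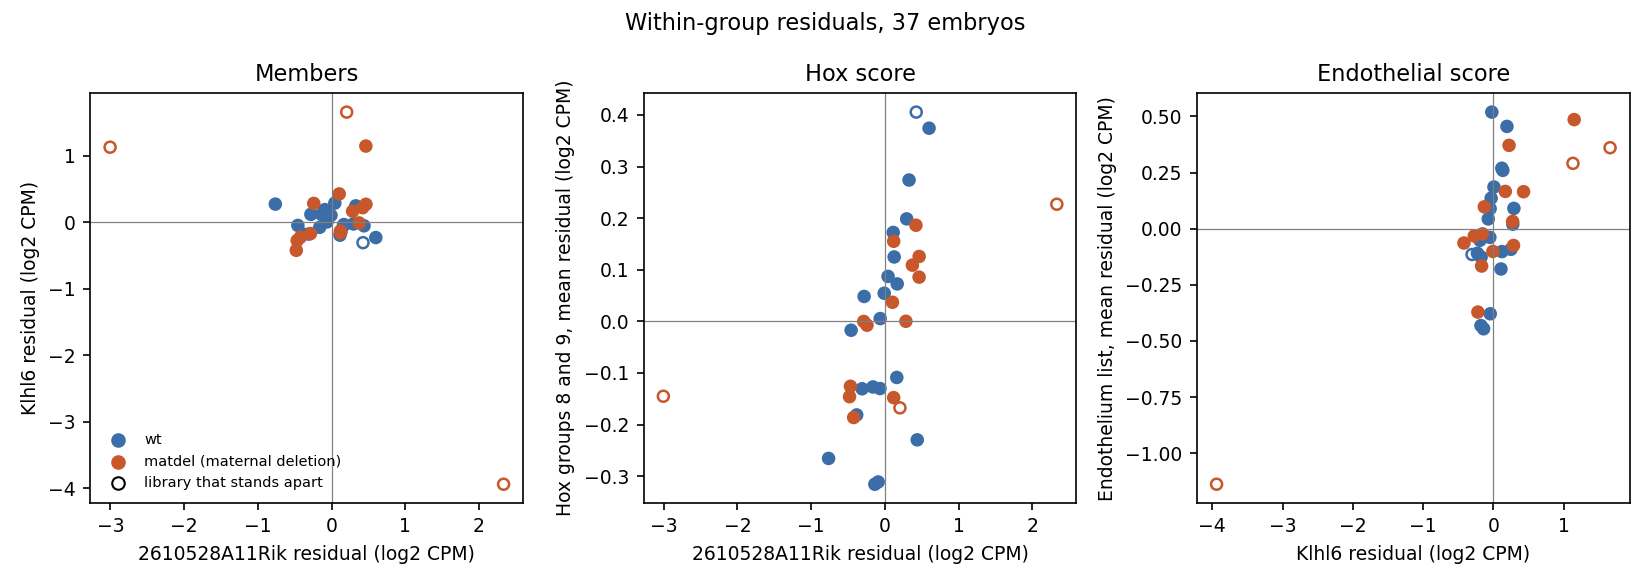
Residual log2 CPM after group and sex in 37 embryos: Klhl6 against 2610528A11Rik (left), the mean of Hox groups 8 and 9 against 2610528A11Rik (middle), and the mean of the endothelium list against Klhl6 (right), with open points for the 4 libraries that stood apart. The most extreme points are open, at -3.00 and 2.33 for 2610528A11Rik and -3.94 for Klhl6. The filled points still slope upwards in the middle and right panels. The filled point with the highest Klhl6 residual is the matdel 6-somite replicate 4. Its Klhl6 residual is raised by the shallowest library, because residuals of a group sum to 0. In every panel, filled points that share a group with an open point are therefore not free of the libraries that stood apart.

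The other scores did not pass adjustment in either set of embryos. 2610528A11Rik had an r of -0.69 with primordial germ cells (adjusted permutation p = 0.137) and of -0.56 with surface ectoderm (adjusted permutation p = 0.289) in 37 embryos, which became -0.34 and -0.12 in the 33. With the share of counts at the ribosomal RNA locus its r was -0.73 (adjusted permutation p = 0.257) in all embryos and -0.13 in the 33. Gut endoderm, the layer that gives rise to the gut epithelium, had an r of -0.22 and -0.16. For Klhl6, r with log10 total counts was 0.67 (adjusted permutation p = 0.289) and then -0.08. With gut endoderm it was 0.36 and 0.35, with blood progenitors 0.51 and -0.06, and with the lymphoid score, which rested on Cd79b alone, 0.27 and 0.22.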

How the data were processed

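Raw read counts per gene were deposited by the authors as 1 table of 37 embryos. Per the paper's methods, poly(A) libraries (stranded or non-stranded TruSeq, not given by library) were read single-end, trimmed, mapped to GRCm38.p6 and counted in SeqMonk. The submitters' notes name Trim Galore 0.4.4 and HISAT2 2.0.5. Because the strand setting per library is not given, sense and antisense reads cannot be told apart. Of 35591 rows, 49 repeated identifiers were dropped and 26 names turned into dates were restored.

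Counts were fitted with edgeR 4.0.16 (filterByExpr at 10 counts, TMM, quasi-likelihood test, Benjamini-Hochberg at 0.05, two-sided). Slopes used somite number and sex; the genotype fit used somite number as a factor, sex and genotype. SE is the log2 value over the root of F, and is too small where edgeR bounds p by Poisson error. Residuals used log2 CPM with a prior count of 2. Correlations were tested with 100000 permutations within groups. Intervals and floors cover counting error only. The labels do not say whether embryos shared a litter. Replicates differed by more than sampling noise (chi-square per degree of freedom 5.12 or more). Fits were tested on simulated data. In the matdel slope fit (15477 genes) 63.8% of genes changed by 0.25 log2 units per somite and 89.5% of those changed by 0.5 were recovered. Of 156 calls 4 were false. With 2610528A11Rik as covariate (16729 genes, all embryos) 38.0% at 0.25 and 63.0% at 0.5 were recovered, and 6 of 105 calls were false. Simulated libraries differed only in size and in the planted changes. These rates therefore do not cover libraries that stand apart in composition.

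The genes, lists and tests were chosen with earlier results of these data known. Named genes were the 10 highest and 5 lowest within-group r of the same sign in both genotypes (at least 5 CPM), the 5 closest profiles, genes within 250 kb and the top or called genes of the lists; not all are printed. The same rule was applied to the 33 embryos, a set chosen after seeing the data. Deposited Hox log2 values and the authors' differential expression columns were not used. A listed marker gene is not reported here.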

Additional observations from a re-analysis of the deposited data

Results flagged for a closer look

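Klhl6 in the 4 wt embryos at 6 somites was 4.42, 4.43, 4.51 and 4.99 CPM. The gap between the highest (replicate 1) and the next, as a share of the range, was 0.846, above the 95% critical value of Dixon's test for 4 samples. Of 8 sets of 4 embryos tested this was the only one past the limit, and chance flags about 1 in 20. The matdel 6-somite values, with ratios of 0.745 for 2610528A11Rik and 0.687 for Klhl6, stayed below it.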

How the results depend on the processing

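The wt slopes stayed within 0.46 to 0.47 log2 units per somite for 2610528A11Rik and 0.25 to 0.26 for Klhl6 under 7 alternatives. In matdel embryos Klhl6 stayed called under 8 alternatives (adjusted p 0.000255 to 0.0266, edgeR or DESeq2) and 2610528A11Rik under 6 of 8. It was lost in DESeq2 (slope 0.34, adjusted p = 0.0932) and with the replicate block (0.43, adjusted p = 0.0506). Genes called for the matdel slope went from 475 to 1127 in DESeq2 and 301 without the libraries with most ribosomal counts. Leaving out single embryos gave 254 to 638 in matdel embryos (254 without the 11-somite replicate 2, 312 without the 10-somite replicate 3 and 297 without the 7-somite replicate 1) and 668 to 1920 in wt embryos (1006 with all; 668 without the 6-somite replicate 1, 1920 without the 10-somite replicate 1). Matdel slopes were then 0.36 to 0.48 for 2610528A11Rik and 0.28 to 0.34 for Klhl6, and wt slopes 0.44 to 0.48 and 0.24 to 0.27. With no filter 39 genes were called for the slope difference in place of 0, neither member among them. Signs of differences near 0 turned: the slope difference of 2610528A11Rik was 0.022 without the pair of shallow libraries (single embryos, -0.095 to 0.031). Matdel minus wt was -0.049 without those libraries and -0.075 in female embryos for 2610528A11Rik (single embryos, -0.065 to 0.078), and 0.056 in females for Klhl6 (-0.088 to 0.0063). In female embryos 1 gene was called for genotype in place of 2.

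Genes co-varying with 2610528A11Rik numbered 1811 with stage and genotype in place of groups, 17 with the replicate block, 320 without shallow libraries, 0 without those with most ribosomal counts and 1 in the 33 embryos (single embryos, 3 to 1545). Those with Klhl6 numbered 19 with log10 total counts as a covariate, 0 without shallow libraries, 30 without those with most ribosomal counts and 0 in the 33 embryos (single embryos, 0 to 378). The r between members was 0.27 without shallow libraries and 0.22 in the 33 embryos (single embryos, -0.64 to 0.21). For 2610528A11Rik and Hox groups 8 and 9, r was 0.44 with the replicate block (adjusted permutation p = 0.139), 0.44 without shallow libraries (0.233) and 0.62 in the 33 embryos (0.275), so that 0 scores were called in each (single embryos, r 0.46 to 0.62 and 0 to 2 scores, 0 without the matdel 6-somite replicate 3 or the wt 7-somite replicate 2, and 2 without either matdel 8-somite embryo). For Klhl6 and endothelium, r was 0.75 with RLE size factors (adjusted permutation p = 0.0436, 1 score called) and 0.80 with the replicate block (0.0140, 2 scores called; single embryos, r 0.40 to 0.80 and 0 to 1 scores, 1 without any of the matdel 6-somite replicates 2 and 4, 9-somite replicate 2, 10-somite replicates 2 and 3, wt 6-somite replicates 1, 3 and 4, 8-somite replicates 1 and 3, the 9-somite embryos and 10-somite replicate 4). Replicate numbers showed no consistent pairing of embryos: 5 of 16 same-numbered pairs had correlated deviations above 0.1 (-0.27 to 0.73). The highest were 0.73 and 0.48 at 9 somites and 0.45 at 10 somites. Pairs with unlike numbers were not compared, so whether a number marks a shared batch cannot be told. The replicate block changed no other call. Depth limits both genes, with 4 embryos under 30 counts for each. The causes of these changes were not tested.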

Other observations

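A stage score was added after the data were seen: the mean residual of the genes that rose with somite number in wt embryos minus that of the genes that fell, the members left out. Its r with the residual of 2610528A11Rik was 0.79 in 21 wt and 0.50 in 16 matdel embryos, and 0.76 in 20 wt and 0.54 in 13 matdel embryos without the libraries that stood apart. For Klhl6 it was -0.27 in wt and 0.01 in matdel embryos with all libraries, and -0.09 and 0.53 without those. The genes of the score were chosen on the wt embryos, all points share libraries, and no test was made.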
